A study of Mus musculus with 12 samples.

Results

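AMPA receptors are the ligand-gated channels that carry most fast excitatory transmission between neurons, and the 10 genes described here encode their pore subunits and part of their auxiliary proteins. They were taken by name, by a rule that uses no measured value, from the 20504 genes of the coding sequence (CDS) count table. Gria1, Gria2, Gria3 and Gria4 encode the 4 pore subunits. Cacng2, Cacng3, Cacng7 and Cacng8 encode 4 transmembrane AMPA receptor regulatory proteins (TARPs), and Cnih2 and Cnih3 encode 2 cornichons, which makes 6 auxiliary subunits.

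The pore is a tetramer of Gria subunits, and it is the composition of the tetramer, above all the presence of an RNA-edited Gria2 subunit, that sets whether the channel passes calcium. TARPs bind the pore subunits, help to carry them to the cell surface and to anchor them at the postsynaptic density, and alter how long the channel stays open. Cornichons accompany receptors out of the endoplasmic reticulum and slow their closure.

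The 12 libraries came from the brains of 6 adult mice, named A to F, that all carry the RiboTag allele under a Camk2a-driven Cre recombinase. Cre in these animals places an HA tag on the ribosomal protein Rpl22 in principal excitatory neurons of the forebrain, so immunoprecipitation (IP) of the tag samples polysomes of those neurons and leaves other cells unlabelled. Mice A and B are labelled untreated and, according to the study's methods, were gavaged with vehicle; they are called vehicle mice here. Mice C and D were given the mTOR kinase inhibitor AZD-8055 at a single oral dose of 100 mg/kg and were sacrificed after 1 h. For vehicle and AZD-8055 mice, the methods name the right frontal lobe as the tissue taken for these libraries, not the whole brain. They name no region separately for mice E and F. Each of these 4 mice gave a ribosome profiling library, which reads the mRNA fragments protected by ribosomes (footprints), and a poly(A) RNA-Seq library of the same lysate, which is not sorted by cell type. Mice E and F, also labelled untreated, each gave an RNA-Seq library of the homogenate (input) and one of the HA IP. Every group thus holds 2 mice. In the homogenate, fewer cells of a type and less RNA per cell cannot be told apart.

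CDS counts summed to between 3503873 and 15585831 per library, and the shallowest were the footprint libraries of mice B, C and D. The IP behaved as its label states for most markers. Of 8 markers of excitatory neurons, 7 were higher in the IP than in the input in both mice, while all 27 markers of inhibitory neurons, astrocytes, oligodendrocytes and their precursors, microglia and endothelium were lower in both. Purkinje and granule cell markers of the cerebellum summed to at most 11.2 CPM (counts scaled to a common library total) in any library, and both libraries of mouse B, at 10.51 and 11.2 CPM, lay above the other 10, which held between 1.70 and 3.78.

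The first comparison asked how densely each transcript was occupied by ribosomes. Translation efficiency (TE) is the ratio of a gene's footprint count to its RNA-Seq count over the same CDS in the same mouse, after division by size factors, so that gene length cancels and a log2 TE of 0 lies near the typical gene. The pore subunits and the auxiliary subunits separated. All 4 Gria transcripts carried more footprints than their RNA-Seq level would give at the typical TE, whereas 5 of the 6 auxiliary transcripts carried fewer, with Cacng8 as the exception.

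In the vehicle mice the fitted log2 TE was 1.08 ± 0.099 (SE, n = 2 mice) for Gria3, 1.02 ± 0.076 for Gria2, 0.50 ± 0.078 for Gria4 and 0.43 ± 0.069 for Gria1. On the side of the auxiliary subunits, it was 0.49 ± 0.080 for Cacng8, -0.56 ± 0.14 for Cnih3, -0.76 ± 0.12 for Cacng3, -1.36 ± 0.11 for Cacng2, -1.80 ± 0.10 for Cnih2 and -2.52 ± 0.098 for Cacng7. All 10 passed the quasi-likelihood test of edgeR with Benjamini-Hochberg adjustment, with adjusted p between 3.9e-12 for Cacng7 and 0.0026 for Cnih3. Passing is common in this comparison: of 11797 genes tested, 73.8% passed, 36.5% higher and 37.3% lower. The sizes are therefore more informative than the count. The median log2 TE was 0.76 over the pore subunits and -1.06 over the auxiliary subunits, beside -0.0096 over all genes tested. Gria2 stood at the 87.3th percentile of all genes and Cacng7 at the 2.40th.

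**Figure D1:**
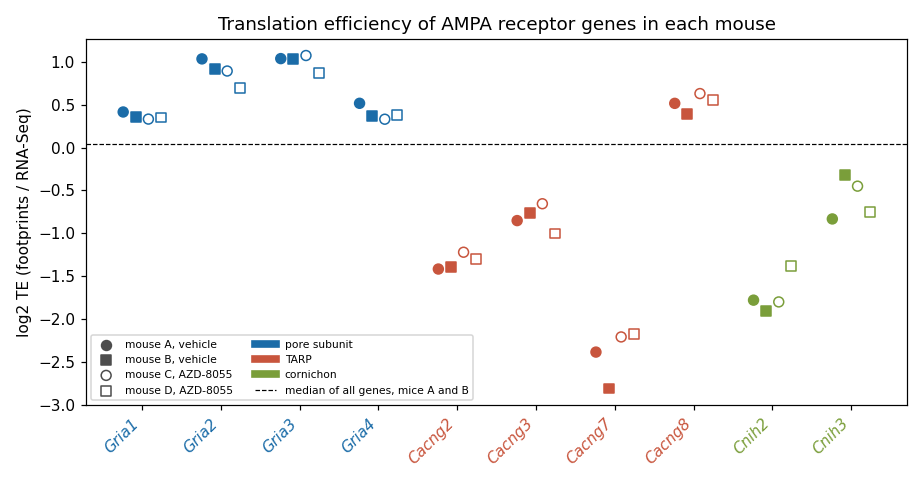
Log2 TE (vertical axis, log2 of footprints over RNA-Seq, size-factor normalised CDS counts) of the 10 AMPA receptor genes, 1 point per mouse; filled points are vehicle mice and open points AZD-8055 mice, and the dashed line is the median of all genes at 0.044. The 4 pore subunits and Cacng8 lie above the line in all 4 mice and the other 5 auxiliary subunits lie below it.

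The counts behind the pore subunits were large. Gria2, the subunit whose edited form blocks calcium entry, had 3582, 3470, 3907 and 3679 normalised RNA-Seq counts in mice A, B, C and D and 7332, 6549, 7251 and 5948 normalised footprint counts. Gria3 had 1476, 1269, 1487 and 1357 normalised RNA-Seq counts in mice A to D and 3028, 2601, 3128 and 2486 normalised footprint counts. For both genes every footprint library lay above every RNA-Seq library. The same held at a smaller distance for Gria1, a subunit brought to synapses during potentiation, whose normalised counts were 1797, 1752, 2047 and 1927 in RNA-Seq and 2395, 2250, 2576 and 2457 in footprints. Gria4, the subunit with the fewest reads of the 4, had 640, 604, 612 and 589 normalised RNA-Seq counts and 914, 779, 769 and 766 normalised footprint counts. The groups did not overlap for any of the 4 pore subunits, which was also true of 72.5% of the 11797 genes tested.

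Among the TARPs, Cacng7 and Cacng8 are neighbours on chromosome 7 (GRCm38.p6 positions from RefSeq, chr7:3332027-3368221 and chr7:3394042-3416266) and lay on opposite sides of the typical gene. Cacng7 had 945, 1018, 1124 and 1055 normalised RNA-Seq counts in mice A to D but only 181, 145, 244 and 234 normalised footprint counts. Cacng8, a TARP best known from the hippocampus, had fewer RNA-Seq counts than Cacng7 in every mouse, at 490, 531, 577 and 604, and more footprints, at 700, 697, 893 and 890. This difference in TE between the neighbours is a ratio of ratios and does not depend on their lengths. Cacng2, known as stargazin from the epileptic stargazer mouse, had 339, 327, 323 and 339 normalised RNA-Seq counts and 127, 125, 139 and 138 normalised footprint counts. Cacng3, the cortical relative of stargazin, had 802, 697, 827 and 735 normalised RNA-Seq counts and 445, 411, 526 and 367 normalised footprint counts. In these last 2 genes, too, footprints and RNA-Seq did not overlap, as in most genes.

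Of the cornichons, Cnih2, a constituent of native hippocampal AMPA receptors, had 908, 964, 1033 and 978 normalised RNA-Seq counts in mice A to D and 265, 258, 297 and 375 normalised footprint counts. Cnih3 had 257, 211, 242 and 234 normalised RNA-Seq counts and 144, 169, 177 and 139 normalised footprint counts. Both genes had fewer normalised footprint than RNA-Seq counts in every mouse. The log2 TE of Cnih3 was -0.83, -0.32, -0.45 and -0.75 in mice A to D, and without mouse A the fitted value in the remaining vehicle mouse was -0.25, with an adjusted p of 0.303 by the Benjamini-Hochberg-adjusted quasi-likelihood test of edgeR. With 1 vehicle mouse left, that test takes the spread from the AZD-8055 mice.

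The order of the 10 genes by TE was nearly the same in every mouse. Gria3 ranked 1 and Gria2 ranked 2 in all 4 mice, although in mouse A they differed by no more than 1.04 against 1.03 in log2 TE. Cacng8, Gria4 and Gria1 held ranks 3 to 5, and the place of Gria4 among them changed between mice. Cacng8 ranked above Gria1 in all 4 mice. Cnih3, Cacng3, Cacng2, Cnih2 and Cacng7 held ranks 6 to 10 in that order in all 4 mice. The median log2 TE of the pore subunits exceeded that of the auxiliary subunits by 1.91, 1.72, 1.55 and 1.68 in mice A, B, C and D. In each mouse the lowest pore subunit lay above the highest auxiliary subunit other than Cacng8, at 0.41 against -0.83 in mouse A and at 0.36 against -0.32 in mouse B. Cacng8 was left out of this statement with its values known. At 0.52, 0.39, 0.63 and 0.56 in mice A to D, it lay above the lowest pore subunit in every mouse.

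In the AZD-8055 mice the same 10 genes passed in the same directions, beside 70.6% of all genes tested. The fitted log2 TE there ran from 1.02 for Gria3 to -2.15 for Cacng7, and the medians were 0.62 over the pore subunits and -0.998 over the auxiliary subunits.

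The division of reads among the members shows the same separation without any scaling between libraries. Of all CDS reads on the 10 genes, pore subunits took between 65.4% and 66.7% in the 4 RNA-Seq libraries of mice A to D and between 84.5% and 88.0% in the 4 footprint libraries. For each read on a pore subunit there were 0.499, 0.528, 0.512 and 0.522 reads on auxiliary subunits in the RNA-Seq libraries of mice A to D, and 0.136, 0.148, 0.166 and 0.184 in their footprint libraries. These are shares of reads and not of molecules, since coding length was not divided out. Within the Gria reads, Gria2 took 47.8% to 48.9% in RNA-Seq and 51.0% to 53.8% in footprints, Gria3 17.9% to 19.7% and 21.3% to 22.8%, Gria1 23.97% to 25.5% and 17.5% to 21.1%, and Gria4 7.60% to 8.53% and 5.60% to 6.69%. The RNA-Seq and footprint ranges did not overlap for any of the 4, so that Gria2 and Gria3 took a larger share of the footprints and Gria1 and Gria4 a smaller one. The 4 shares are parts of 1 total, so a rise in some forces a fall in others. In normalised counts, footprints and RNA-Seq did not overlap for 72.5% of the 11797 genes tested, so such separation is common.

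**Figure D2:**
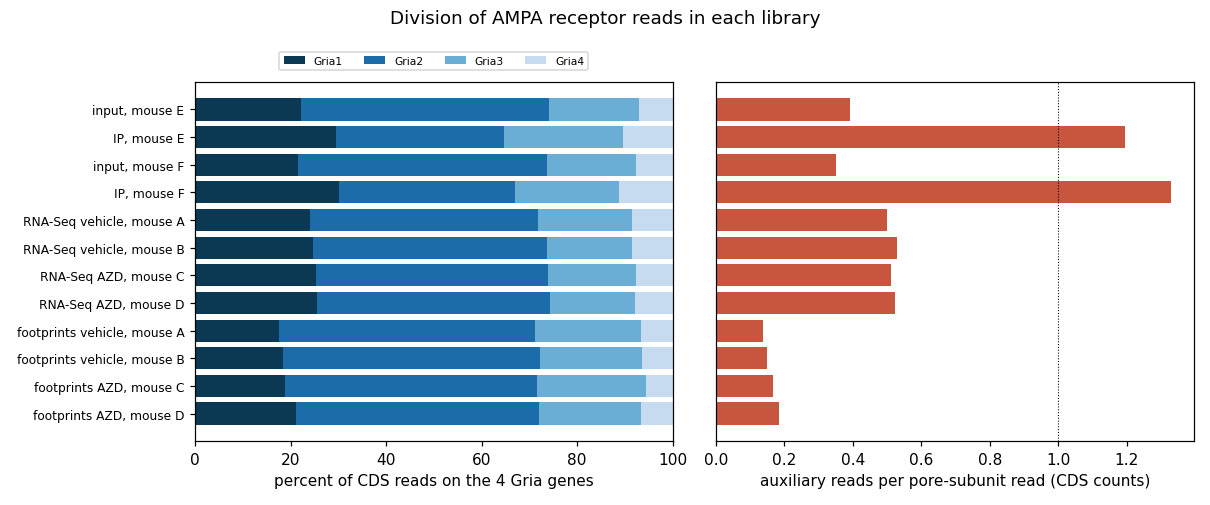
Left, the share of CDS reads (horizontal axis, percent) that each Gria gene took of all reads on the 4 Gria genes in each of the 12 libraries; right, CDS reads on the 6 auxiliary subunits per read on a pore subunit, with the dotted line at 1. The 4 footprint libraries have the smallest ratios at 0.136 to 0.184 and the 2 IP libraries the largest, at 1.20 and 1.33.

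The second comparison, between IP and input in mice E and F, asked which members were enriched in the tagged polysomes of Camk2a neurons. On CDS reads all 4 pore subunits were lower in the IP and both cornichons and 3 of the 4 TARPs were higher, while Cacng7 was lower. The log2 change was -1.63 ± 0.11 (SE, n = 2 mice) for Gria2, -0.78 ± 0.14 for Gria3, -0.65 ± 0.11 for Gria1, -0.56 ± 0.13 for Gria4 and -0.55 ± 0.12 for Cacng7. It was 1.21 ± 0.13 for Cnih3, 1.08 ± 0.12 for Cacng3, 0.86 ± 0.12 for Cacng8, 0.65 ± 0.12 for Cnih2 and 0.59 ± 0.14 for Cacng2. All 10 passed the quasi-likelihood test of edgeR with Benjamini-Hochberg adjustment (largest adjusted p = 0.0038, for Cacng2). So did 75.5% of the 12211 genes tested, 36.5% higher and 39% lower. The median log2 change was -0.72 over the pore subunits and 0.75 over the auxiliary subunits, beside -0.067 over all genes tested.

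Scaling by total counts in place of TMM moved the median of all genes in this comparison to -0.51, and 32.5% of all calls were then higher, against 48.3% with TMM. The calls for Cacng2 (0.15, adjusted p = 0.340) and Cnih2 (0.21, adjusted p = 0.155) by the Benjamini-Hochberg-adjusted quasi-likelihood test of edgeR were lost.

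Mice E and F gave the same direction for all 10 members, but differed in size for some: the log2 enrichment on CDS reads was -0.44 and -0.88 for Gria3 and -0.28 and -0.57 for Gria4. The mice lay closest for the 2 most enriched members, Cnih3 and Cacng3, and gave -1.38 and -1.62 for Gria2. Normalised CDS counts of Gria2 fell from 6891 (input) to 2646 (IP) in mouse E and from 7554 to 2465 in mouse F. Those of Cacng3 were 1267 and 2897 in mouse E and 1124 and 2661 in mouse F, and those of Cnih3 were 397 and 1020 in mouse E and 440 and 1104 in mouse F. Input and IP did not overlap for these 3 genes, as for 87.3% of the 12211 genes tested, and Gria2 was lower in both IPs while Cacng3 and Cnih3 were higher in both. In reads, the pore subunits took 71.8% and 74.1% of all CDS reads on the members in the inputs of mice E and F and 45.5% and 42.9% in the IPs. On CDS reads there were 1.20 and 1.33 auxiliary reads per pore subunit read in the IPs. By that count the IPs were the only libraries of the 12 in which auxiliary reads outnumbered pore reads. Over all exon reads, untranslated regions included, pore reads outnumbered auxiliary reads in both IPs. Raw exon counts of Gria1, Gria2, Gria3 and Gria4 were 6095, 7966, 6192 and 1462 in the IP of mouse E. In that of mouse F they were 6769, 9651, 6592 and 1771. The highest auxiliary counts, of Cnih2, were 3996 and 3783. Gria2 took 51.9% and 52.2% of the Gria CDS reads in the inputs and 35.4% and 36.8% in the IPs. Each of the other Gria genes took a larger share of the Gria CDS reads in the IP than in the input in both mice.

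The IP result for the pore subunits depended on which reads were counted, in size for Gria2 and in the call for Gria1 and Gria3. Over all exons, untranslated regions included, the log2 change of Gria3 was 0.015 (adjusted p = 0.890), that of Gria1 was -0.12 (adjusted p = 0.243) and that of Cacng2 was 0.24 (adjusted p = 0.116) by the Benjamini-Hochberg-adjusted quasi-likelihood test of edgeR, so that 7 of the 10 members passed, beside 69.4% of all genes tested on exons. Gria2 stayed lower at -0.85, as did Gria4 at -0.47 and Cacng7 at -1.01, and Cacng3, Cnih2, Cnih3 and Cacng8 stayed higher at 0.95, 0.56, 1.09 and 0.37. Gria2 and Gria4 were thus lower than the typical gene in the IP by either count, whereas Gria1 and Gria3 were called lower only on CDS reads.

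Behind this lay an uneven distribution of reads along the transcripts. In the inputs of mice E and F, Gria1, Gria2, Gria3 and Gria4 had between 2.06 and 2.38 exon reads for each CDS read. In the IPs Gria3 had 4.97 and 6.45 exon reads per CDS read, Gria2 4.48 and 5.60, Gria1 4.13 and 4.80, and Gria4 2.79 and 3.39. Over 12213 genes the median ratio also rose, from 1.47 and 1.49 in the inputs to 1.84 and 1.97 in the IPs, and it was 1.501 to 1.53 in the RNA-Seq libraries of mice A to D. The auxiliary subunits moved less, from 3.37 and 3.48 to 4.04 and 4.62 for Cnih3 and from 2.00 in both inputs to 2.07 and 2.25 for Cacng2. The cause of the uneven distribution was not tested. Cacng7 had 1.00 exon reads per CDS read in every library, so its change from -0.55 on CDS to -1.01 on exons came from the scaling of the other genes alone. On exon reads outside the CDS, Gria2 (-0.76) and Gria4 (-0.60) were lower and Cacng3 (0.90) and Cnih3 (0.70) were higher by the same test, Gria1, Gria3, Cacng2 and Cnih2 did not pass, and Cacng7 and Cacng8 had too few such reads to be tested; 59.6% of all genes tested passed.

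**Figure D3:**
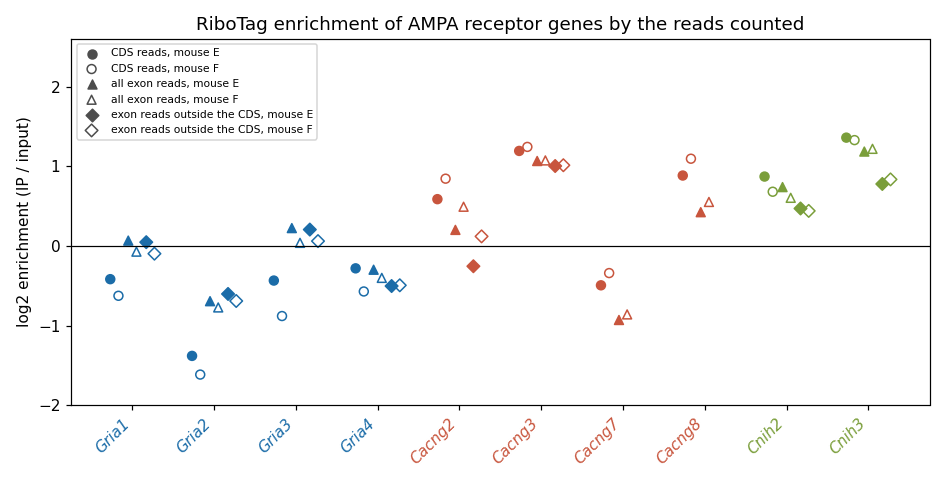
Log2 enrichment in the HA IP over input (vertical axis) of the 10 genes in mice E (filled) and F (open), computed from CDS reads (circles), all exon reads (triangles) and exon reads outside the CDS (diamonds, not available for Cacng7 and Cacng8). Gria1 and Gria3 lie below 0 on CDS reads and near 0 on the others, Gria2 lies below 0 on all and Cacng3 and Cnih3 above 0 on all.

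Set side by side, the measurements in mice A and B and in mice E and F placed the members in all 4 combinations of high and low. The 4 pore subunits combined a TE above the typical gene with a lower CDS level in the IP. Cacng2, Cacng3, Cnih2 and Cnih3 combined a low TE with a higher level in the IP. Cacng8 was high in both and Cacng7 low in both, so these 2 neighbouring genes fell in opposite combinations, though neither was the most extreme member in both measures. TE was measured in the homogenate and the IP in tagged neurons only. The IP values of the pore subunits carry the dependence on counted reads given above. Cacng2 also depended on them, at 0.24 over all exons and -0.16 outside the CDS, neither of which passed. Cnih2 did not pass outside the CDS, and both genes lost their calls under scaling by total counts.

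**Figure D4:**
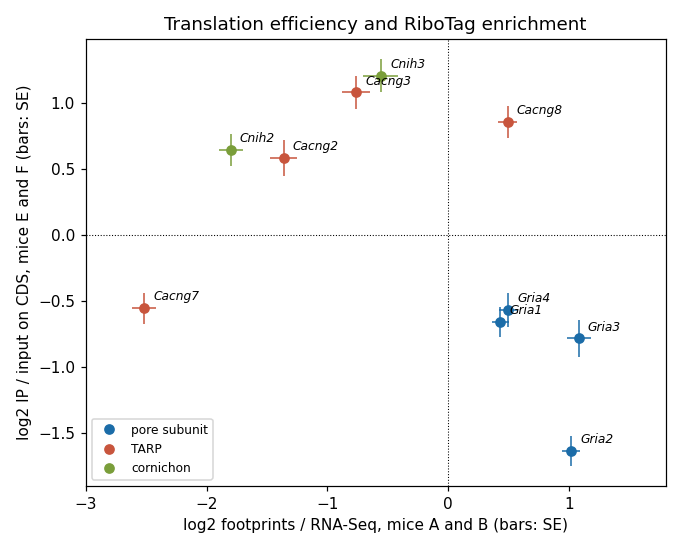
Fitted log2 TE in mice A and B (horizontal axis) against fitted log2 change from input to IP on CDS reads in mice E and F (vertical axis) for the 10 genes, with SE bars. Pore subunits lie at the lower right, Cacng8 alone at the upper right, Cacng7 alone at the lower left and the remaining 4 auxiliary subunits at the upper left.

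The third comparison asked whether inhibition of mTOR for 1 h altered the members. mTOR signalling promotes cap-dependent initiation and acts most strongly on mRNAs that encode the translation machinery. None of the 10 members passed the quasi-likelihood test of edgeR with Benjamini-Hochberg adjustment in TE, in RNA-Seq or in footprints, and DESeq2 called none of those to which it gave an adjusted p, which in footprints left out Cacng2, Cacng7 and Cnih3. Of all genes tested, 0.865% passed in TE, 0.148% in RNA-Seq and 1.03% in footprints. At an unadjusted p under 0.05 there was 1 member in TE (6.75% of all genes), 1 in RNA-Seq (8.24%) and 3 in footprints (12.8%).

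The intervals of the pore subunits for the change in TE all held 0. The log2 change in TE was -0.045 for Gria1 (95% confidence interval -0.25 to 0.16), -0.18 for Gria2 (-0.41 to 0.050), -0.059 for Gria3 (-0.36 to 0.24) and -0.094 for Gria4 (-0.33 to 0.15). Changes of 2-fold in either direction lay outside these 4 intervals and those of the 6 auxiliary subunits. For Cnih3, the member with the fewest RNA-Seq counts, the interval of -0.46 to 0.45 was the widest of the 10. Among the auxiliary subunits the estimates were 0.37 (0.060 to 0.69) for Cacng7, whose unadjusted interval excluded 0 and whose adjusted p was 0.584 in edgeR, 0.29 (-0.028 to 0.60) for Cnih2 and 0.15 (-0.092 to 0.39) for Cacng8.

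The 3 members that came nearest to a change were auxiliary subunits, all with more footprints in the AZD-8055 mice. The log2 footprint change was 0.53 ± 0.15 (SE) for Cacng7 (adjusted p = 0.178), 0.36 ± 0.081 for Cacng8 (adjusted p = 0.088) and 0.38 ± 0.14 for Cnih2 (adjusted p = 0.315) by the Benjamini-Hochberg-adjusted quasi-likelihood test of edgeR. In each of the 3, both AZD-8055 mice lay above both vehicle mice in normalised footprint counts, for example 893 and 890 against 700 and 697 for Cacng8. The same held for Gria1 and Cacng2, while for Gria4 both AZD-8055 mice lay below both vehicle mice. With 2 mice a group such separation is common: it was found in 40.2% of the 10695 genes tested, and in 20.2% with the AZD-8055 mice higher. Without mouse C, the shallowest footprint library, Cacng8 (0.38, adjusted p = 0.0063) and Cnih2 (0.55, adjusted p = 0.0071) passed that test, but so did 7.63% of all genes, and the single AZD-8055 mouse left is then assumed to vary as the vehicle mice do. Without mouse D, Cnih2 stood at 0.16 (adjusted p = 0.819) and Cacng8 at 0.33 (adjusted p = 0.067) in edgeR. Their RNA-Seq changes were 0.19 ± 0.080 for Cacng8 and 0.080 ± 0.070 for Cnih2. Some marker sums were also higher in both AZD-8055 mice, although no single marker of these lists passed in footprints. In RNA-Seq, the markers of striatum summed to 996 and 1009 CPM in mice A and B and 1174 and 1245 in mice C and D. There 1 of the 6 passed, as higher, and the median log2 change of the 6 was 0.32, while 0.148% of all genes passed. Summed markers of excitatory neurons were at 3603 and 3646 CPM in the footprints of mice A and B and at 3982 and 3994 in those of mice C and D, and summed markers of striatum, from a list of 6 genes, were at 748 and 785 and at 829 and 1032. Summed markers of inhibitory neurons were at 1917 and 1896 CPM in mice A and B and at 2013 and 2099 in mice C and D. Those of microglia were at 244.4 and 244.8 and at 250.0 and 245.4. The sums of astrocytes overlapped, at 4736 and 4404 in mice A and B and 5025 and 4604 in mice C and D. So did those of oligodendrocytes, their precursors and endothelium. The part of these marker sums in the footprint changes was not tested.

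**Figure D5:**
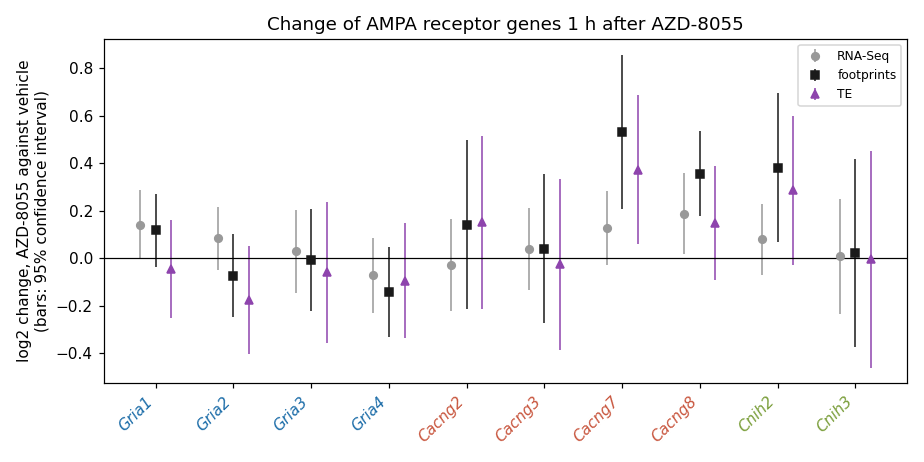
Log2 change from vehicle to AZD-8055 (vertical axis) of the 10 genes in RNA-Seq (circles), footprints (squares) and TE (triangles), with 95% confidence intervals from edgeR that are not adjusted for the number of genes. The intervals of Cacng7, Cacng8 and Cnih2 in footprints, of Cacng7 in TE and of Cacng8 in RNA-Seq exclude 0, and none of the 10 genes passed after adjustment.

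Other proteins of AMPA receptor complexes and of their biogenesis did not share 1 direction. Of 21 such genes tested, 9 were higher and 7 lower in TE in the vehicle mice, with a median log2 TE of 0.021, beside the 36.5% higher and 37.3% lower of all genes. The largest values were those of Shisa6 (2.01), an auxiliary subunit that keeps receptors at synapses, Olfm3 (1.99), a secreted olfactomedin, and Frrs1l (1.84), which acts in receptor assembly in the endoplasmic reticulum. The smallest were those of Cpt1c (-1.29), an endoplasmic reticulum partner of Gria1, Vwc2 (-0.99) and the TARP Cacng4 (-0.89). The relatives of the auxiliary members in this list, named here after their values were seen, went both ways, since the TARP Cacng5 (1.06) and the cornichon Cnih (1.02) were higher. In the IP, 9 of 20 tested were higher and 7 lower, with a median of 0.21, beside 36.5% and 39% of all genes. Olfm1 (1.71), Olfm2 (1.43) and Nrn1 (1.11) rose most and Olfm3 (-2.44), Frrs1l (-2.27) and the TARP Cacng5 (-1.98) fell most.

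Among 19 genes of receptor trafficking, anchoring and signalling, 10 were higher and 6 lower in TE, again beside 36.5% and 37.3% of all genes, with a median of 0.35. Nptxr (2.03) and Nptx1 (1.71), neuronal pentraxins that cluster AMPA receptors from outside the cell, and the endosomal sorting protein Snx27 (1.05) were highest. Dlg4, the main scaffold of the postsynaptic density to which TARPs bind, had the lowest value, at -2.20 ± 0.072 (SE). It was followed by Epb4.1l1 (-1.27) and the scaffold Grip2 (-1.21). In the IP, 5 of the 19 were higher, led by Nptx2 (1.40), Dlg4 (1.01) and Pick1 (0.71), and 8 were lower, among which Dlg2 (-1.86), the editing enzyme Adarb1 (-1.68) and Snx27 (-1.50) fell most. Camk2a itself, whose promoter drives Cre in these mice and which was named here after its value was seen, was lower in the IP on CDS reads, at -0.66 ± 0.16. None of the genes of these 2 lists passed the quasi-likelihood test of edgeR for a change with AZD-8055 in TE, RNA-Seq or footprints, and DESeq2 called none to which it gave an adjusted p. At an unadjusted p under 0.05 in edgeR, the first list had 3 of 21 genes in TE, 2 of 20 in RNA-Seq and 7 of 20 in footprints, and the second had 1, 1 and 3 of 19. Of all genes, 6.75%, 8.24% and 12.8% lay under that limit.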

How the data were processed

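The authors deposited unnormalised read counts per gene in 2 tables, one over CDS (12 libraries) and one over exons (the 8 RNA-Seq libraries). Per the labels, the submitters' processing notes name Bowtie2, TopHat2, HTSeq and mm10. The study's methods describe trimming of footprint reads, removal of rRNA reads, alignment, and counting of reads that lie wholly within a feature, so reads shared between genes are lost. All 10 members were found by symbol. In each table, 27 symbols were turned into dates and could not be named. Positions are those of RefSeq genes on GRCm38.p6.

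TE and IP enrichment per mouse are ratios of counts divided by size factors. Tests used edgeR 4.0.16 in R 4.3.3 (TMM, quasi-likelihood F-test, two-sided, Benjamini-Hochberg adjustment over all genes tested, threshold 0.05) after removal of genes whose mean count per library was under 37. TE and its change came from 1 fit over the 8 libraries of mice A to D, the other contrasts from the 4 libraries compared. RiboDiff, which the study used for TE, was not used here. The TE of all genes is that of 10169 genes with at least 37 counts in each library of mice A and B. Alternatives were DESeq2 1.42.0, other scalings, filters and counts, a fold limit of 2, leaving out each mouse, and the mouse as a replicate block. Exon reads outside the CDS were examined after seeing the data. The procedures were tested on simulated data. Tables were handled in Python 3.11.15 with pandas 2.3.3 and plotted with matplotlib 3.10.9.

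Same-lettered libraries come from 1 animal. The difference between mice correlated across genes at 0.23 (A and B) and 0.218 (C and D) between RNA-Seq and footprints over 11797 genes, and at 0.454 (E and F) between input and IP over 12211 genes. With 2 mice per group, p-values and SEs rest on the spread within groups, pooled over the groups of a fit and moderated across genes. Those of TE in the vehicle mice thus also draw on mice C and D. Apart from the fits with the mouse as a block, libraries of 1 animal were treated as independent. Replicate libraries differed by more than counting noise.

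The rule for the 10 members uses no measured value. All 10 members, the other genes named, the marker lists and the tests were still chosen with earlier results of these data known. Genes named from the 2 lists are the 3 largest rises and falls among those that passed. Genes closest to 4 members are those with the highest correlation over the 12 libraries. Results of some marker genes are not reported here.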

Additional observations from a re-analysis of the deposited data

How the results depend on the processing

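Under a fold limit of 2, 5 members kept a TE call in the vehicle mice, 4 in the AZD-8055 mice, and 3 were called in the IP, beside 30.8%, 29.3% and 46.5% of all genes. Exon reads outside the CDS gave 4 IP calls, with Gria3 at 0.028 and Cacng2 at -0.16 in place of -0.78 and 0.59, and over all exon reads Gria3 was at 0.015. Exon reads per CDS read of Gria3 rose from 2.33 and 2.38 in the inputs to 4.97 and 6.45 in the IPs. Those of Cacng2 went only from 2.00 in both inputs to 2.07 and 2.25. That rise was smaller than the rise of the median gene, from 1.47 and 1.49 to 1.84 and 1.97. The cause of the reversals was not tested. With the mouse as a replicate block (paired libraries), all 10 members were again called in TE in both treatments and in the IP, where 81.9% of all genes passed, and none was called for a change in TE. No paired analysis was possible for the RNA-Seq and footprint changes because the treated and vehicle mice are different animals. Leaving out each mouse gave 0 to 2 members called in footprints after AZD-8055, and Cnih3 lost its TE call in the AZD-8055 mice without mouse D (-0.41, adjusted p = 0.128 by edgeR, with the spread taken from the vehicle mice). The IP value of Gria3 was -0.56 in mouse E alone and -0.99 in mouse F alone, without a test. Scaling by total counts moved the median log2 TE of all genes from -0.0096 to -0.15 in the vehicle mice and from -0.019 to -0.12 in the AZD-8055 mice, with the same 5 members higher and 5 lower. DESeq2, size factors in edgeR and the other filters changed no count of members. Counts per kb for the read shares were not run, since coding lengths were not used here. Footprint depth limits Cnih3 and Cacng2 most.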

Other observations

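Over the 12 CDS libraries, the genes whose log2 CPM followed a member most closely among 12014 genes were Dock3 (Pearson r = 0.994), Dlg2 (0.993) and Lpgat1 (0.993) for Gria2, and Tmem132b (0.983), Megf9 (0.981) and Ptprt (0.979) for Gria1. They were Ppfia3 (0.996), Sh3bp5l (0.996) and Aggf1 (0.995) for Cnih2, and B3galt6 (0.968), Faim2 (0.965) and Trim32 (0.956) for Cacng8. The libraries fall into input or RNA-Seq, IP and footprint groups, and all points share this division, so these values are a description without a test. No other member was among the closest 3 genes of these 4 members.

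All members together took 1957 and 2056 CPM in CDS reads in the inputs of mice E and F and 1185 and 1093 in the IPs. In mice A, B, C and D they took 1615, 1598, 1728 and 1651 CPM in RNA-Seq and 2045, 1965, 2137 and 1935 in footprints.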
